A study of Homo sapiens with 27 samples.

Results

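Glutamine tRNA (tRNA-Gln) reads the glutamine codons with either a CTG or a TTG anticodon, written here as in the DNA. Pseudouridine (Ψ) levels in these tRNAs were followed through loss of single pseudouridine synthases. The sites were all rows of the cytosolic tRNA tables whose name starts with Gln-. They were 44 of 705 listed sites and came from 11 of 250 tRNA isodecoders, that is, tRNAs that share an anticodon but differ elsewhere in sequence. The CTG anticodon accounted for 7 isodecoders and 28 sites, and the TTG anticodon for 4 isodecoders and 16 sites. Each isodecoder was listed at the same 4 positions of the conventional tRNA numbering, which are 13, 28, 39 and 55.

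The cells were HEK293T, a human embryonic kidney line. The groups used were wild type and single knockouts of PUS1, PUS7 and TRUB1, all grown without a further treatment named in the labels, and 12 of the series' 27 libraries belong to them. Each genotype had 2 libraries treated by PRAISE, in which a bisulfite-type reagent forms a Ψ adduct that is read as a deletion, and 1 untreated library of the same demethylated small RNA. The labels do not say how many clones stand behind a knockout, and the messenger RNA of the targeted gene is not measured in the tRNA tables, so the loss of the enzyme was not checked here. The labels call the treated libraries technical replicates, so every p-value below measures technical spread, not spread between cultures. A level is the share of reads covering a site that carry a deletion, in percent, and is given per treated library or as mean ± SD (n = 2).

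Ψ is made from uridine by synthases that each recognise particular places in a tRNA. PUS7 modifies position 13 in the D arm, PUS1 modifies uridines at the top of the anticodon stem such as 27 and 28, PUS3 modifies 38 and 39 at its lower end, and TRUB1 and PUS10 both act on position 55 in the T loop, the near-universal Ψ of the TΨC arm. The modified stem positions are known to stiffen the anticodon arm, and Ψ55 helps to join the T and D loops.

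Sequences of one isodecoder of each anticodon are shown because they place all 4 sites side by side. They were taken by name from RefSeq and GENCODE 29 entries, and the authors' isodecoder naming was not stated to be the same. The gene TRQ-TTG2-1 (Gln-TTG-2) lies at chr6:28589379-28589450 on the plus strand of GRCh38.p14, inside an exon of AL049543.1 on the same strand and of ZBED9 on the other, and all 72 bases are printed. For TRQ-CTG7-1 (Gln-CTG-7), the first 60 bases are printed, chr1:148328812-148328871 on the plus strand, inside introns of AC245100.1 and LINC01138. Capitals mark the T at 13, 28 and 39 and the TT at bases 53 and 54, which holds position 55 of the conventional numbering.
Gln-TTG-2: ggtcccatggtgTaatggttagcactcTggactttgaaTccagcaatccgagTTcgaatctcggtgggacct
Gln-CTG-7: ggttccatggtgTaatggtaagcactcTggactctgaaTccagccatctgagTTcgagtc
Over these 60 bases, 54 were equal and 6 differed. Counted from base 1 of the gene, with the Gln-TTG-2 base first, the differences were C4T, T20A, T34C, A45C, C49T and A58G, of which T34C is the first anticodon base. The 5 bases centred on each of the first 3 sites were identical in both genes: TGTAA around 13, TCTGG around 28 and AATCC around 39. RefSeq holds 19 genes named for the 11 isodecoders, of which 15 lie outside the genes of GENCODE 29, 3 in introns and 1 in an exon.

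In wild type, every tRNA-Gln site carried a deletion level far above its untreated library. The sites come from the authors' list of pseudouridine sites, so this may follow from the listing itself, whose filters are not given. Position 55 was the highest of the 4 in 7 of 11 isodecoders. It lay between 79.7% and 89.5% in the 4 TTG isodecoders, and among the CTG isodecoders it ran from 17.6% ± 0.299 in Gln-CTG-5 to 88.0% ± 0.458 in Gln-CTG-3. The low end was made by Gln-CTG-5 and by Gln-CTG-7 at 46.3% ± 1.04, the latter with only 100 and 123 covering reads. Gln-CTG-5 was covered by 57443 and 49107 reads at position 55 but by only 1169 and 1184 at position 39. In Gln-CTG-1 these were 430668 and 443028 against 380998 and 397461. Whether the reads at position 55 of Gln-CTG-5 all come from that tRNA was not tested. Gln-CTG-5 and Gln-CTG-7 were also the lowest at position 39, with 42.5% ± 0.684 and 51.7% ± 0.500. Gln-TTG-4 followed at 63.8% ± 1.08, and the other 8 lay between 77.2% and 80.8%. Among those 8, the neighbours in the order from Gln-CTG-6 down to Gln-CTG-4 did not differ beyond their spread.

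At position 28 the wild-type isodecoders fell into steps. Gln-TTG-3 and Gln-TTG-1 were highest and both at 77.4%. Gln-CTG-1 (67.4% ± 0.0781), Gln-TTG-2 (67.1% ± 0.358) and Gln-CTG-2 (66.9% ± 0.109) formed the next step. Neighbours in this order did not differ beyond their spread, but the libraries of Gln-CTG-1 and Gln-CTG-2 did not overlap. Gln-CTG-3 and Gln-CTG-6 stood at 52.9% ± 0.0594 and 52.8% ± 0.244, and Gln-TTG-4 at 50.8% ± 5.50 could not be told from them. Below these came Gln-CTG-4 (45.0% ± 0.0665), Gln-CTG-5 (37.8% ± 0.703) and Gln-CTG-7 (26.5% ± 0.244), each apart from the next. Position 13 ran from 32.3% ± 2.52 in Gln-CTG-5 to 71.2% ± 1.06 in Gln-TTG-4, with Gln-CTG-3 as the highest CTG isodecoder at 66.2% ± 2.12.

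The untreated libraries set the background. Over the 176 untreated values of the 4 genotypes and 44 sites, 5 exceeded 1%, and the highest was 3.12%, for Gln-CTG-7 at position 55 in the PUS1 knockout. With the position 55 values of Gln-CTG-7 left out, the maximum was 1.19%. Depth varied widely between isodecoders: in the treated wild-type libraries tRNA-Gln sites were covered by 100 to 443028 reads, with medians of 32840 and 32875, and the knockouts reached from 88 reads to 770546. Levels of treated replicates differed by a median of 0.756 points in wild type, 0.417 in the PUS1 knockout, 1.15 in the PUS7 knockout and 1.67 in the TRUB1 knockout. Gln-TTG-1 and Gln-TTG-3 had treated wild-type coverage that differed by no more than 0.617% at positions 28, 39 and 55. At position 13 it differed by 12.3% to 16.2%. At positions 28, 39 and 55 their coverage differed by at most 0.684% in the treated PUS1 and TRUB1 knockouts. There it differed by 3.42% to 8.57% in the treated PUS7 knockout and by 12.3% to 16.0% in the untreated wild-type library. With the near-equal treated coverage at these positions outside the PUS7 knockout, reads may be shared between them. Both still count as isodecoders in the TTG means, medians and sums below.

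**Figure D1:**
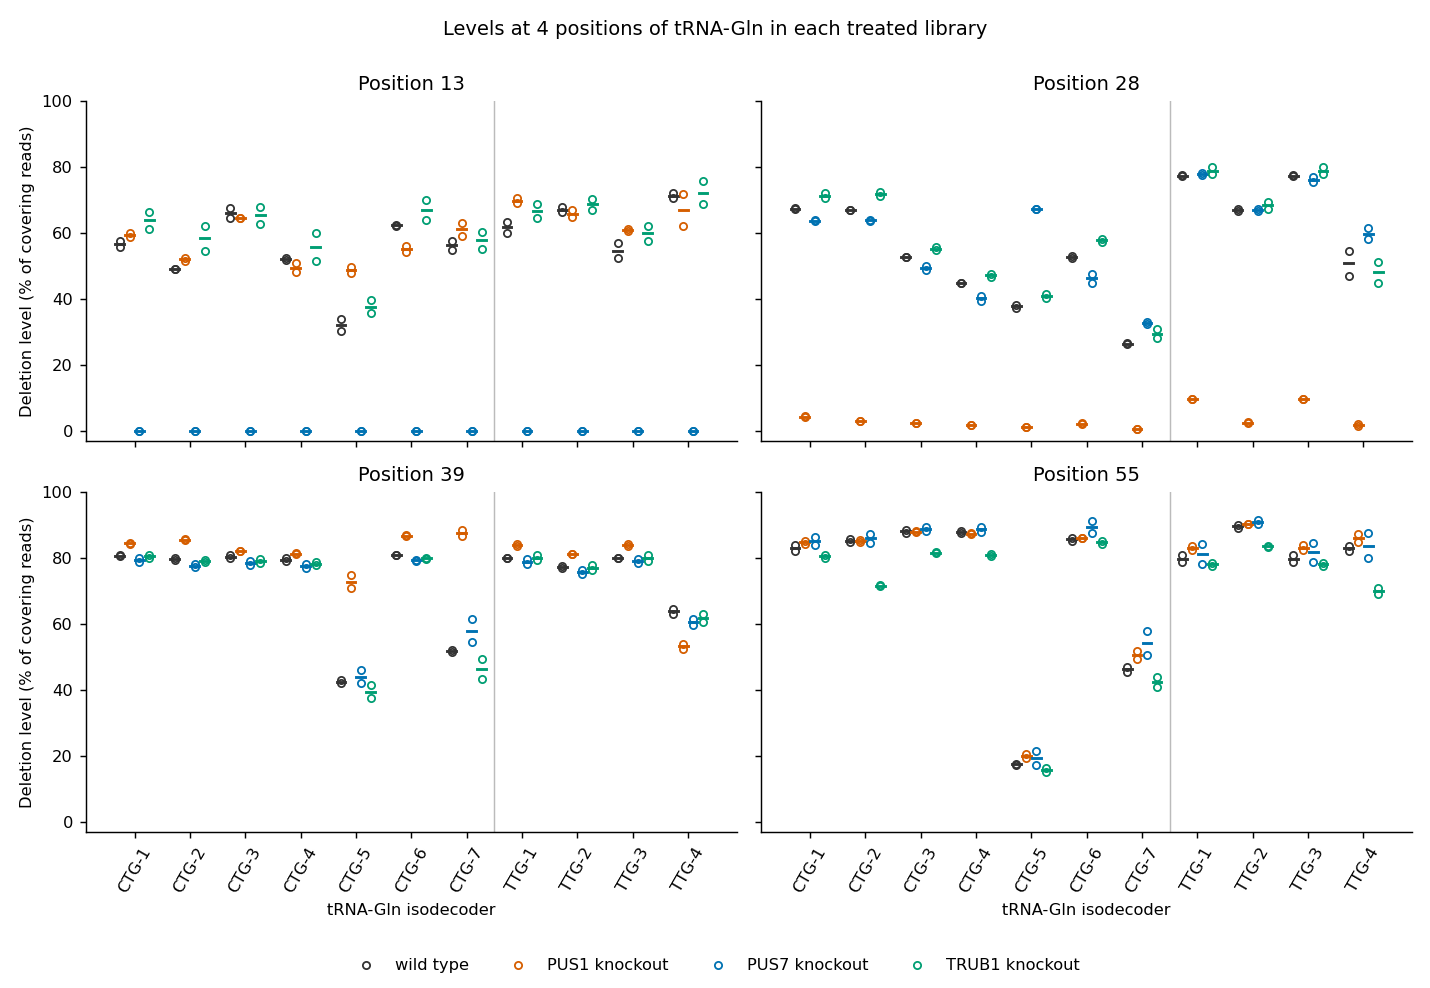
Deletion level (% of covering reads) in each treated library for the 11 tRNA-Gln isodecoders at 4 positions. Circles are the 2 libraries of a genotype and bars their mean. Position 13 lies near 0 in the PUS7 knockout and position 28 lies at or below 9.95% in the PUS1 knockout for every isodecoder, while Gln-CTG-5 is the lowest wild-type isodecoder at positions 13, 39 and 55.

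The PUS1 comparison asks which tRNA-Gln sites need this synthase. Position 28 was nearly emptied in all 11 isodecoders of both anticodons, from 26.5% to 77.4% in wild type to 0.645% to 9.94% in the knockout. Sites were called when the moderated quasi-binomial test gave a Benjamini-Hochberg adjusted p below 0.05 over the whole table and the mean level moved by at least 10 points. Of 701 cytosolic sites tested, 16% were called lower and 7.7% higher. Of the 44 tRNA-Gln sites, 12 were called lower, 11 of them at position 28, and 3 higher. At position 28 of the other tRNAs all 74 sites were lower, 73 of them with an adjusted p below 0.05. Of the 74, 48 were called lower and 25 more missed only the 10-point threshold. Over the 74 sites, the median level was 25.0% with PUS1 and 2.12% without it. For the 11 tRNA-Gln sites these medians were 52.9% and 2.53%.

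Gln-CTG-1, the most deeply covered isodecoder, had 67.3% and 67.4% at position 28 in wild type and 4.54% and 4.44% in the knockout. It fell by 62.9 points (SE 0.117, adjusted p = 2.11e-09), and the groups were far from overlapping. Gln-CTG-2 went from 66.8% and 67.0% to 3.28% in both libraries. Gln-CTG-3 had 52.8% and 52.9% against 2.58% and 2.49%. Gln-CTG-4, with 45.0% and 44.9%, had 2.02% and 1.93% in the knockout. The differences of these 3 were -63.6, -50.3 and -43.0 points, and none of their libraries overlapped between genotypes.

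The remaining CTG isodecoders followed the same course. Gln-CTG-5 had 38.3% and 37.3% in wild type against 1.25% and 1.27%. Gln-CTG-6 had 52.6% and 52.9% against 2.40% and 2.35%. Gln-CTG-7, the lowest in both genotypes, had 26.3% and 26.7% against 0.630% and 0.661%, and fell by 25.8 points (SE 0.982, adjusted p = 4.58e-06). The groups of all 3 were separate.

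Among the TTG isodecoders, Gln-TTG-2 went from 67.3% and 66.8% to 2.63% and 2.72%. Gln-TTG-4, covered by only 181 and 211 reads in wild type, went from 54.7% and 46.9% to 1.67% and 2.27%, a fall of 48.8 points (SE 3.55, adjusted p = 9.54e-05). Gln-TTG-1 and Gln-TTG-3 kept the most deletions. Gln-TTG-1 had 77.2% and 77.5% in wild type and 9.94% and 9.95% in the knockout. Gln-TTG-3, whose counts nearly equal those of Gln-TTG-1, had 77.3% and 77.5% against 9.93% in both libraries. Each had fallen by 67.4 or 67.5 points, yet the remainder was 12.8% of the wild-type level, against 2.44% to 6.66% in the other 9. The untreated PUS1 knockout library had 0.345% at this site of Gln-TTG-1. Summed over isodecoders, position 28 fell by 59.0 points in Gln-CTG and fell by 66.5 points in Gln-TTG, both with an adjusted p of 7.54e-08. These were the 2 called among the 8 tRNA-Gln sums, while over all 174 sums 15.5% were called lower and 6.9% higher.

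Position 39, at the lower end of the anticodon stem and a known PUS3 target, moved upwards in the PUS1 knockout. It was higher in 10 of 11 isodecoders, and the adjusted p was below 0.05 in all 11, but only 2 rose past 10 points. Gln-CTG-7 rose from 52.1% and 51.4% to 88.5% and 86.6%, that is, by 35.8 points (SE 2.00, adjusted p = 6.46e-05). Gln-CTG-5 rose from 43.0% and 42.1% to 70.8% and 74.8%, by 30.2 points (SE 2.33, adjusted p = 0.000326). The groups were apart in both, and these had been the lowest isodecoders at position 39 in wild type. Gln-CTG-7 ended as the highest of the 11. The other 8 that were higher gained 1.78 to 5.91 points, for example 80.5% and 80.9% to 84.2% and 84.5% in Gln-CTG-1.

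Gln-TTG-4 went the other way at position 39, from 63.0% and 64.5% to 54.01% and 52.4%. It fell by 10.6 points (SE 1.85, adjusted p = 0.00703), with no overlap, but the difference dropped below 10 points without replicate 2 of wild type (-9.80) or of the knockout (-9.76). In the other tRNAs, position 39 was higher at 85 of 107 sites, and 68 of the 107 had an adjusted p below 0.05 in either direction. It was called higher at 25 of them and lower at 1. The tRNA-Gln median difference at position 39 was 3.90 points and that of the other tRNAs 3.14 points. Covering reads of Gln-CTG-7 at position 39 were 920 and 810 in wild type and 4114 and 3666 in the knockout, 4.50 times as many, where the median over the 11 isodecoders was 1.62 times; the part of coverage in the rise was not tested.

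At position 13, Gln-CTG-5 also rose in the PUS1 knockout, from 30.5% and 34.1% to 48.0% and 49.8%. The rise was 16.6 points (SE 1.90, adjusted p = 0.00161), and the libraries did not overlap. In the other tRNAs, 4 of 38 sites at position 13 were called higher and 3 lower. Covering reads of Gln-CTG-5 at position 13 went from 902 and 925 to 3336 and 3362. That was 3.67 times as many, where the median over the 11 isodecoders was 2.17 times. The part of coverage in this rise was not tested. The other 10 isodecoders differed by -7.01 to 8.02 points and were not called, although Gln-CTG-6, Gln-TTG-1 and Gln-TTG-3 had an adjusted p below 0.05. At position 55 the differences ran from -0.510 to 4.22 points. By the moderated quasi-binomial test 0 of 11 sites were called there, as by the other tests tried (limma on the levels, Fisher's exact test), although 4 had an unadjusted p below 0.05 in the first. Of these, Gln-CTG-5, Gln-TTG-1 and Gln-TTG-3 also had an adjusted p below 0.05 and missed only the 10-point threshold.

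Loss of PUS7 removed the position 13 signal from every tRNA-Gln isodecoder. Wild-type levels of 32.3% to 71.2% became 0.00808% to 0.238%, against 0% to 0.143% in the untreated knockout library. Of 700 cytosolic sites tested, 11% were called lower and 2.86% higher. In tRNA-Gln, 11 of 44 sites were called lower, all at position 13, and 1 was called higher. All 38 position 13 sites of other tRNAs were called lower too, and their median level was 72.2% with PUS7 and 0.176% without it. In tRNA-Gln those medians were 56.7% and 0.114%.

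Gln-CTG-1 had 55.7% and 57.6% at position 13 in wild type and 0.117% and 0.110% in the PUS7 knockout. It fell by 56.5 points (SE 0.770, adjusted p = 1.84e-05). The untreated knockout library had 0.0334%. Gln-TTG-4 had the largest fall, from 70.5% and 71.97% to 0.0209% and 0.0245%, by 71.2 points (SE 1.99, adjusted p = 0.000147). Gln-CTG-5 had the smallest, from 30.5% and 34.1% to 0.0120% and 0.00418%, by 32.3 points (SE 1.86, adjusted p = 0.000302). All 3 were far below every wild-type library.

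The remaining 5 CTG isodecoders were equally separate between genotypes. Gln-CTG-2 went from 49.2% and 49.1% to 0.0631% and 0.0560%. Gln-CTG-3, which kept the most, went from 67.7% and 64.7% to 0.243% and 0.234%, where its untreated knockout library had 0.143%. Gln-CTG-4 went from 51.9% and 52.6% to 0.131% and 0.146%. None of the 3 kept more than 0.360% of its wild-type level. Gln-CTG-6 went from 62.4% and 62.2% to 0.153% and 0.249%, and Gln-CTG-7 from 54.97% and 57.7% to 0.0734% and 0.0904%.

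The TTG isodecoders behaved alike at position 13. Gln-TTG-1 had 63.4% and 60.2% in wild type and 0.109% and 0.114% in the knockout. Gln-TTG-2, the gene printed whole above, had 67.9% and 66.2% against 0.120% and 0.109%. Gln-TTG-3 had 56.9% and 52.5% against 0.142% and 0.170%. No library of one genotype reached the other, and adjusted p over the 11 isodecoders ran from 1.84e-05 to 0.000614. Summed over isodecoders, position 13 fell by 56.3 points in Gln-CTG (adjusted p = 7.33e-06) and by 61.6 points in Gln-TTG (adjusted p = 4.78e-05), against 13.2% of all 174 sums called lower and 3.45% called higher.

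The single tRNA-Gln site called higher without PUS7 was position 28 of Gln-CTG-5. Its level was 38.3% and 37.3% in wild type and 67.3% and 67.2% in the knockout. It rose by 29.4 points (SE 0.846, adjusted p = 0.000496), with tight and separate groups. Reads covering this site went from 2474 and 2631 to 29240 and 51918, 15.9 times as many, whereas position 39 of the same isodecoder went from 1169 and 1184 to 1876 and 2558. Whether the added reads come from the same molecules was not tested. In the other 10 isodecoders position 28 differed by -6.45 to 8.96 points. Among them Gln-CTG-1, Gln-CTG-2, Gln-CTG-3 and Gln-CTG-4 differed by -3.04 to -4.72 points with an adjusted p below 0.05. In other tRNAs, 5 of 73 position 28 sites were called higher.

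Positions 39 and 55 stayed within 10 points in the PUS7 knockout. Position 39 differed by -3.19 to 6.28 points and position 55 by 0.732 to 7.96 points. By the moderated quasi-binomial test 0 of 22 sites at these positions were called, and 4 at position 39 and 0 at position 55 had an unadjusted p below 0.05. Limma on the levels also called 0, as did Fisher's exact test. Gln-CTG-1 at position 55, for example, had 82.1% and 83.7% in wild type and 83.9% and 86.4% in the knockout, which did not overlap but lay close together. In the other tRNAs 12 of 107 sites at position 39 were called higher.

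Loss of TRUB1, a position 55 synthase, left most of the tRNA-Gln signal at position 55 in place. All 11 isodecoders were lower there, with a median difference of -3.79 points, and 2 fell past 10 points. In the whole table of 701 sites, 11.1% were called lower and 0.428% higher. At position 55 of other tRNAs, 208 of 227 sites were lower, 75 were called lower, and the median difference was -6.53 points. An adjusted p below 0.05, in either direction, was found at 170 of these 227 sites and at 5 of the 11 in tRNA-Gln. The authors' deposited table labels every tRNA-Gln site as TRUB1-independent, while it labels all 11 at position 28 as PUS1-dependent and all 11 at position 13 as PUS7-dependent. The rule behind these labels was not compared with the thresholds used for the calls here.

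Gln-CTG-2 had 84.6% and 85.6% at position 55 in wild type and 71.7% and 71.4% without TRUB1. It fell by 13.6 points (SE 0.395, adjusted p = 4.31e-05), and the groups were apart by many times their spread. Gln-TTG-4 had 82.0% and 83.6% against 70.8% and 69.1%. It fell by 12.9 points (SE 1.78, adjusted p = 0.00819), also without overlap, but its adjusted p became 0.0780 without wild-type replicate 1 and 0.111 without wild-type replicate 2, fits in which 1 wild-type library is assumed to vary like the rest. The other 9 differed by -0.851 to -6.88 points. Gln-CTG-3, Gln-CTG-4 and Gln-TTG-2 differed by -6.13 to -6.88 points with an adjusted p below 0.05. Gln-CTG-1 stood at 82.1% and 83.7% against 80.9% and 80.0%, and Gln-TTG-3 at 78.7% and 80.8% against 78.4% and 77.6%.

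Elsewhere in the TRUB1 knockout no tRNA-Gln site passed both thresholds with all libraries. Position 28 of the CTG isodecoders was higher in 7 of 7, by 2.23 to 5.05 points, and 5 of these had an adjusted p below 0.05. In the other tRNAs 47 of 74 sites at this position were higher and 27 lower. Of the 74, 17 had an adjusted p below 0.05, counted in both directions. In the TTG isodecoders it differed by -2.74 to 1.51 points. Position 13 differed by -0.829 to 9.22 points, with the largest value in Gln-CTG-2 (54.5% and 62.2% without TRUB1 against 49.2% and 49.1%, adjusted p = 0.102). This site passed both thresholds when knockout replicate 1 was left out, but that fit has 1 knockout library and takes the spread from wild type and the other sites. Position 39 differed by -5.37 to 0.0154 points. By the moderated quasi-binomial test, and equally by limma on the levels or Fisher's exact test, 0 of these 33 sites were called, while 2 at position 13, 5 at position 28 and 0 at position 39 had an unadjusted p below 0.05 in the first. Of the 8 sums over isodecoders, 0 were called and 3 had an unadjusted p below 0.05, in a table where 9.2% of sums were called lower and 0.575% higher. Limma on isodecoder means also called 0 of the 8. The summed difference at position 55 was -5.69 points in Gln-CTG (adjusted p = 0.0145) and -2.86 points in Gln-TTG (adjusted p = 0.0586).

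**Figure D2:**
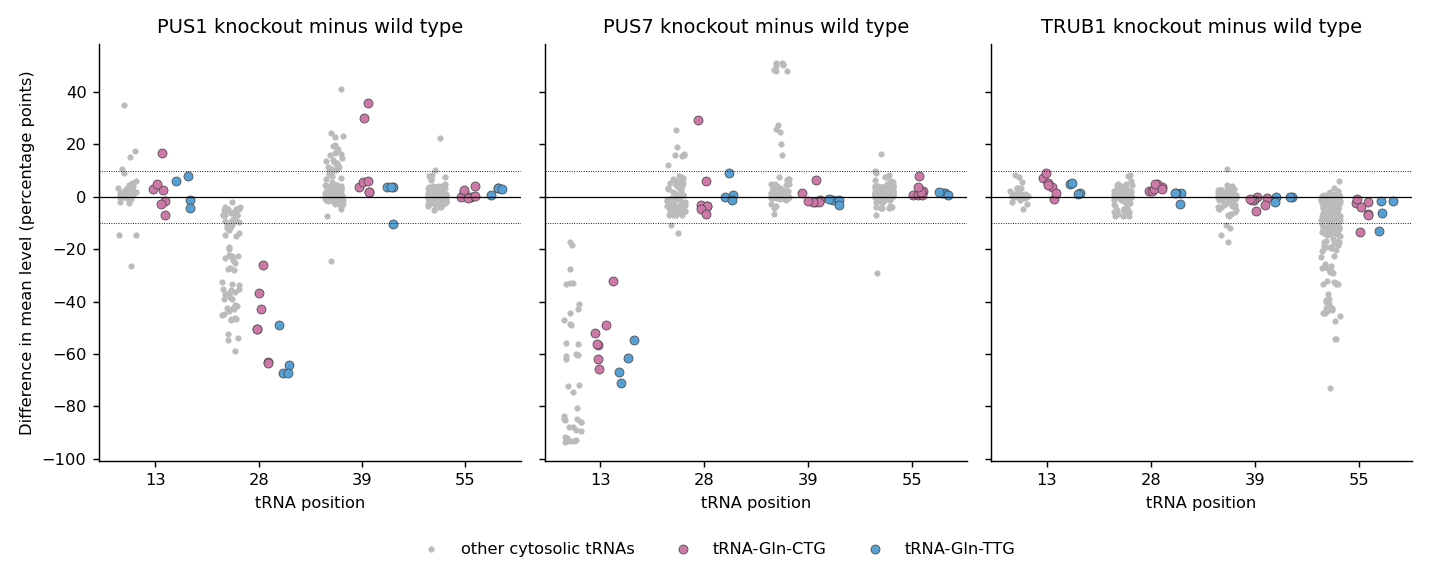
Knockout minus wild-type mean level (percentage points) at each position for every tested site of other cytosolic tRNAs (grey) and of tRNA-Gln (coloured), spread sideways for legibility, with dotted lines at 10 points in each direction. All tRNA-Gln points at position 28 lie at -25.8 or below in the PUS1 knockout and all at position 13 at -32.3 or below in the PUS7 knockout, while position 55 in the TRUB1 knockout reaches only -13.6 in tRNA-Gln.

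The isoacceptors were compared within each library, as the mean over the 7 CTG isodecoders minus the mean over the 4 TTG isodecoders. In wild type this mean difference was below 0 at every position. It was -10.1 ± 1.93 points at position 13, -18.3 ± 1.36 at 28, -4.49 ± 0.334 at 39 and -12.5 ± 0.954 at 55. These means weight each isodecoder equally, and Gln-CTG-5 and Gln-CTG-7 hold the lowest values. The TTG means and sums also count Gln-TTG-1 and Gln-TTG-3 separately, although their reads may be shared. With isodecoders summed by reads, wild-type position 39 was 80.2% in Gln-CTG and 79.3% in Gln-TTG, so the order there turned with the weighting. The medians over isodecoders also ran the other way there, at 79.7% in Gln-CTG and 78.6% in Gln-TTG. At position 55, Gln-CTG was lower by reads, at 80.3% against 82.0%, but higher by the median isodecoder, at 85.1% against 81.3%. At positions 13 and 28 Gln-CTG was lower by all 3 summaries, with read-weighted levels of 56.4% and 61.7% at 13 and of 62.6% and 74.8% at 28.

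At position 39 the difference between isoacceptors changed sign in the PUS1 knockout. It was -4.26 and -4.73 points in the wild-type libraries and 7.09 and 7.65 in the knockout libraries. The change of 11.9 points separated the groups, but an exact 2-sided permutation test of 2 against 2 libraries cannot go below p = 0.3333, the value found. The isodecoders called at position 39, Gln-CTG-5, Gln-CTG-7 and Gln-TTG-4, are among the least covered. By summed reads the rise was 3.72 points in Gln-CTG (SE 0.207, adjusted p = 0.000502) and 3.88 points in Gln-TTG (SE 0.187, adjusted p = 0.000326).

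At the positions emptied in a knockout, a difference in points has to shrink, so its change there says nothing about the isoacceptors. At position 28 without PUS1 the difference went from -18.3 to -3.77 ± 0.152 points, with mean levels of 2.37% in Gln-CTG and 6.13% in Gln-TTG against 49.9% and 68.2% in wild type. At position 13 without PUS7 it went from -10.1 to 0.0190 ± 0.00491 points. At position 28 without PUS7 it was -18.3 ± 0.131 points, a mean equal to that of wild type although isodecoders moved. Gln-CTG-5 rose by 29.4 points, while the other CTG isodecoders differed by -6.45 to 6.17 and the TTG isodecoders by -1.27 to 8.96. By summed reads the changes were -2.58 points in Gln-CTG and -1.11 points in Gln-TTG. In the other 8 of the 12 comparisons the difference moved by at most 3.11 points, which was the value for position 28 without TRUB1. All 12 had an exact permutation p of 0.3333 or more.

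**Figure D3:**
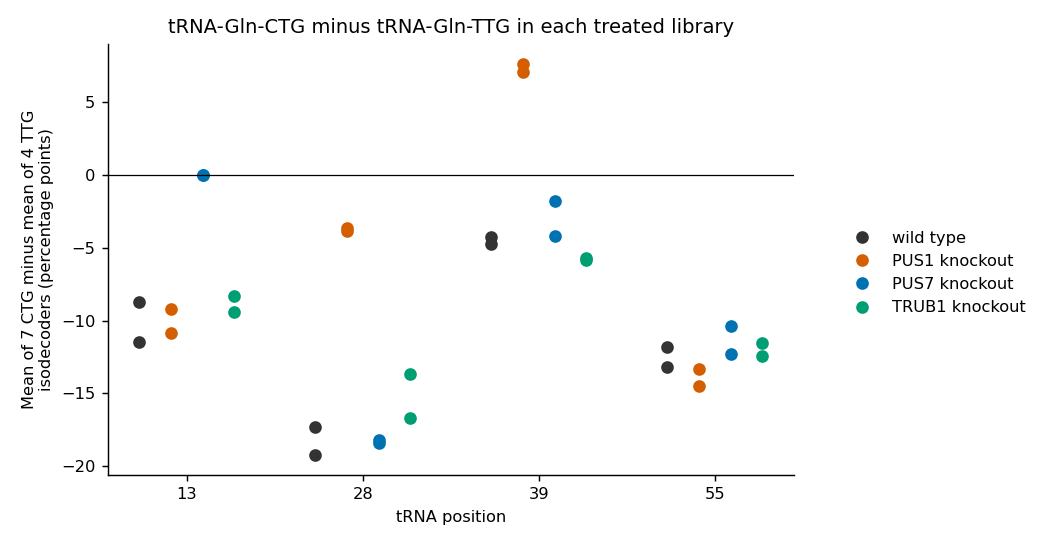
Mean level of the 7 Gln-CTG isodecoders minus that of the 4 Gln-TTG isodecoders (percentage points) in each treated library, by position and genotype. Wild type lies below 0 at all 4 positions, the PUS1 knockout lies above 0 at position 39 with 7.09 and 7.65, and the PUS7 knockout lies at 0.0155 and 0.0224 at position 13.

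Coverage along the tRNA also differed between genotypes, a readout that was looked at after the levels were known. Whether it follows the level at a site was not tested. In the treated wild-type libraries, reads covering position 13 were a median of 2.28% and 2.54% of those covering position 39 of the same isodecoder. In the untreated wild-type library the share was 43.2%. Treated libraries of the PUS7 knockout had medians of 40.7% and 41.5%, close to the median of 41.3% in their untreated library. The PUS1 knockout had 3.44% and 3.63% and the TRUB1 knockout 2.25% and 1.96%, both far below the PUS7 knockout.

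The share varied widely between isodecoders, from 0.818% to 77.2% in treated wild-type replicate 1 and from 0.799% to 78.1% in replicate 2, with Gln-CTG-5 the highest in both. In the treated PUS7 knockout it ran from 9.63% to 2224% in replicate 1 and from 9.20% to 2807% in replicate 2. The untreated library of that knockout had 29.9% to 243%, so the closeness of the medians does not hold for every isodecoder. Relative to position 55, the treated wild-type medians were 2.04% and 2.15% in tRNA-Gln and 5.89% and 6.16% in the 38 other tRNAs listed at position 13. Without PUS7 they were 37.2% and 40.3% in tRNA-Gln and 28.3% and 29.9% in the others. Treated PUS7 knockout libraries had 3.45 to 62.1 times the covering reads of wild type at position 13 of tRNA-Gln, with a median of 24.2, while the untreated libraries gave 0.434 to 1.13 times. How the authors' mapping treats reads with several deletions is not given in the sources used here, and its part in the levels was not tested.

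Position 28 showed a smaller shift, which was not particular to the PUS1 knockout. Its covering reads were a median of 54.6% and 55.6% of those at position 39 in treated wild type, 85.7% in the untreated library, and 75.8% and 76.4% in the treated PUS1 knockout. The PUS7 knockout had 69.6% and 70.4%, although the median difference in tRNA-Gln level at position 28 was -1.27 points there. The TRUB1 knockout had 53.3% and 54.3%.

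**Figure D4:**
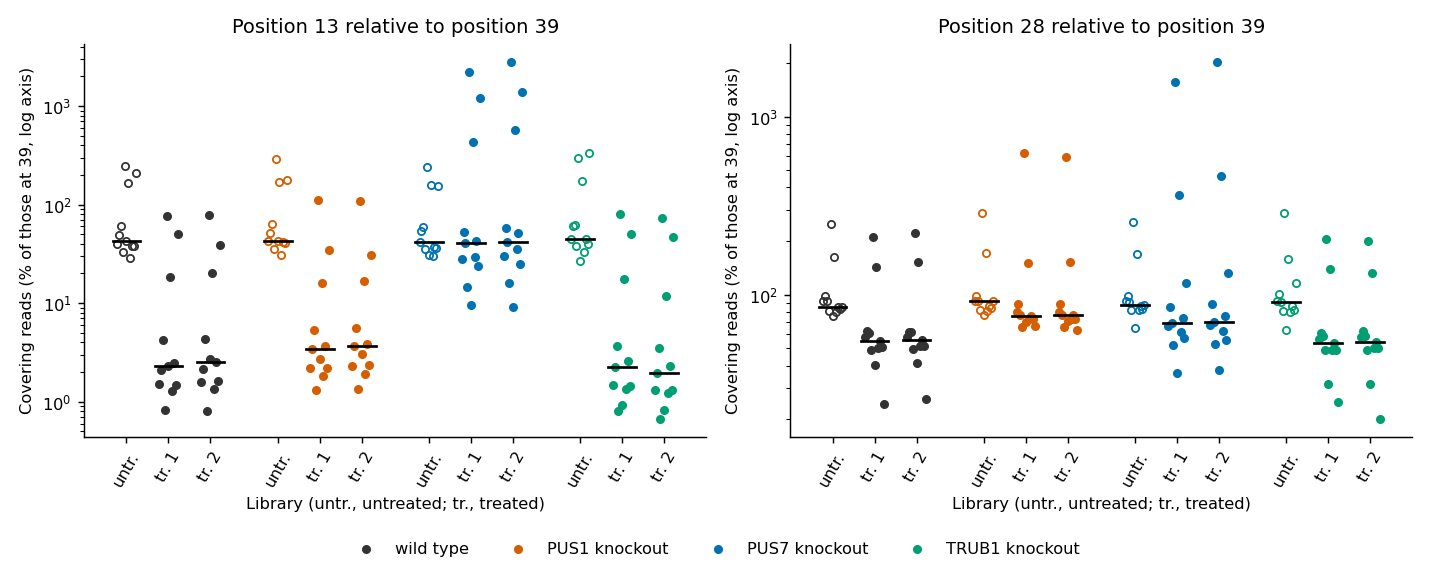
Reads covering position 13 (left) or 28 (right) as a percentage of those covering position 39 of the same tRNA-Gln isodecoder, on a log axis, for each library. Points are isodecoders and bars medians. The treated PUS7 knockout medians at position 13, 40.7% and 41.5%, lie near the untreated medians, whereas treated wild type lies at 2.28% and 2.54%. Isodecoders of the PUS7 knockout run from 9.63% to 2224% in treated replicate 1 and from 29.9% to 243% untreated.

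Other isoacceptors were ranked by how closely their changes over the 3 knockouts followed those of tRNA-Gln at the same position, as the mean absolute difference in points. The 3 comparisons share their wild-type libraries. At position 13, His-GTG was nearest to both, at 2.95 points from Gln-CTG and 3.55 from Gln-TTG among 12 isoacceptors, with a PUS7 knockout change of -56.3 points, the same to 3 digits as that of Gln-CTG. Gly-TCC and Val-AAC came next for Gln-CTG, and Val-CAC and Val-TAC for Gln-TTG.

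At position 28, Val-TAC, Ser-TGA and Ser-AGA were nearest to both among 15 isoacceptors. They were farther away, Val-TAC at 7.06 points from Gln-CTG and 8.06 from Gln-TTG. Val-TAC had a PUS1 knockout change of -59.1 points beside -59.0 in Gln-CTG and -66.5 in Gln-TTG, but a PUS7 knockout change of 12.1 points beside -2.58 and -1.11. Without TRUB1 its change was -1.80 points, where Gln-CTG had 4.67 and Gln-TTG 1.72. At position 39, among 22, Lys-CTT, Arg-TCG and Ile-TAT were within 1.20 to 1.29 points of Gln-CTG, and Arg-TCG was nearest to Gln-TTG at 0.858, followed by Arg-CCG and Lys-CTT. At position 55, among 45, Phe-GAA was nearest to Gln-CTG at 1.38 points, before Ser-GCT and Leu-AAG, and Arg-TCG was nearest to Gln-TTG at 0.967, before Arg-TCT and Leu-TAA.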

How the data were processed

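Treated and untreated libraries of 4 genotypes were used. Per the file headers, the authors' deposited tables give counts of reads with a deletion and of reads covering each listed site. The submitters' processing notes list BWA, SAMtools 1.14, cutadapt, UMI-tools 1.0.0 and GRCh38, without roles; site filters and the counting of deletions are not given in the sources used here.

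A level was the deletion count divided by the covering reads. Sites covered by 20 or more reads in each treated library compared, all 44 of tRNA-Gln in each comparison, were fitted with a quasi-binomial model of genotype, with dispersions moderated across the whole cytosolic table by limma 3.58.1 in R 4.3.3 and not allowed below 1. Calls needed a Benjamini-Hochberg adjusted p below 0.05 over that table and 10 points. The same model was fitted to counts summed per isoacceptor and position, and the code was tested on simulated data. The members and lists were chosen with earlier results of these data known. Every called site was named, the others by range with the most deeply covered isodecoder as example, and beyond tRNA-Gln the 3 most similar isoacceptors; Gln-TTG-3 coverage and the coverage ratios were looked at after values were seen. Alternatives covered the coverage minimum, the 10-point threshold, the test, background subtraction, the replicate block and each left-out library. Precision here covers counting error and the spread of 2 libraries.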

Additional observations from a re-analysis of the deposited data

How the results depend on the processing

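Counts of called tRNA-Gln sites kept within 1.5 times of those reported under most settings tried: coverage minimums of 100 or 1 read, Fisher's exact test on summed counts, limma on the levels, subtraction of the untreated level, and leaving out Gln-TTG-3. With a threshold of 20 points, 0 sites were lower in the TRUB1 knockout instead of 2. Leaving out 1 library at a time gave 1 to 2 lower and 0 to 1 higher sites in the TRUB1 knockout, the added site being Gln-CTG-2 at position 13 without knockout replicate 1 (adjusted p = 0.102 with both). Fits with 1 library in a group assume that it varies like the other group and the other sites, so this call leaves out the spread of the knockout libraries themselves. An unweighted mean of isodecoders tested by limma called 1 sum higher in the PUS1 knockout instead of 0, Gln-CTG at position 39, because it weights Gln-CTG-5 and Gln-CTG-7 like the deeply covered isodecoders. No result reversed.

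Replicate numbers did not pair the libraries: deviations of same-numbered replicates correlated at -0.206 (PUS1), 0.0798 (PUS7) and -0.138 (TRUB1). With a replicate block the counts of lower and higher sites were 12 and 3, 11 and 1, and 2 and 0, as without it, and a crossed pairing, added after the data were seen, gave the same counts for PUS1 and TRUB1. Depth limits Gln-CTG-7 at position 55 (100 and 123 wild-type reads) and Gln-TTG-4 at position 28 (181 and 211).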
